A study of Sus scrofa with 4 samples.

Results

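A set of 10 genes that build and receive the transforming growth factor beta (TGF-beta) signal were read in sorted epidermal cells of the pig. They and the gene lists used below were chosen by name, with earlier results of these data known. The 3 ligand genes are TGFB1, TGFB2 and TGFB3, and the 3 receptor genes are TGFBR1, TGFBR2 and TGFBR3. The 3 latent binding protein genes are LTBP1, LTBP2 and LTBP3, and the inhibitor gene is SMAD7. All 10 were among the 29837 named genes of the counts, and all 10 were among the 15980 that passed the filter on low counts. The libraries came from 2 juvenile pigs, 88R and 95R. Each pig gave 1 LGR5-high library, from the brightest GFP cells of the sort, and 1 LGR5-negative library, from cells without GFP, so that each population had 2 libraries. The pigs belong to a line in which H2B-GFP, a nuclear green fluorescent histone, was knocked in at one copy of LGR5, and the other copy was left intact, so that both populations carry the same reporter allele. The line was made by nuclear transfer from clonal edited fetal fibroblasts, and whether 88R and 95R were clones or later offspring is not given in the sources used here. H2B-GFP stays in the nucleus and thins out with division, so the gate reads past as well as present LGR5 promoter activity. GFP-dim cells were sorted in the study but are not analysed here.

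TGF-beta is made as a precursor that stays folded with its own propeptide in an inactive, latent complex. Latent binding proteins, which are large relatives of the fibrillins, tie this complex to the extracellular matrix, and integrins, thrombospondin and proteases release the active ligand from it. The released ligand binds TGFBR2, which recruits and phosphorylates TGFBR1, and the activated pair phosphorylates SMAD2 and SMAD3. TGFBR3, also called betaglycan, is a co-receptor without kinase activity that presents ligand, TGFB2 above all, to TGFBR2. SMAD7 is induced by the pathway and blocks TGFBR1. In skin the pathway is known as a brake on keratinocyte division, as an inducer of the regressing phase of the hair follicle, and, through TGFB2, as a signal between the dermal papilla and follicle stem cells.

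The libraries held between 30696803 and 32463362 counts on named genes. For LGR5 itself, pigs 88R and 95R gave 4551 and 6224 counts in LGR5-high against 36 and 109 in LGR5-negative, which is the order that the sort labels give. Of the 6 listed markers of the follicle stem cell and the sort, 5 were higher in LGR5-high. The basal epidermal markers KRT5, KRT15 and TP63 were not called in either direction, though KRT15 was higher when the pig was added as a replicate block (log2 fold change 0.73, adjusted p = 2.13e-06). Of the 4 suprabasal markers, 3 were lower, and all 4 inner root sheath markers were higher, with a summed level of 884 to 1165 CPM, the count of a gene per fixed number of library counts, in LGR5-high and 72.7 to 88.3 CPM in LGR5-negative. Markers of cells other than keratinocytes differed too. The 6 Langerhans and myeloid markers summed to 16.3 to 16.5 CPM in LGR5-high, against 103 to 147 CPM in LGR5-negative, with 4 lower and 1 higher. The 6 endothelial markers summed to 6.28 to 7.60 CPM and 21.4 to 21.5 CPM, with 5 lower, and the 6 melanocyte markers to 61.9 CPM in both LGR5-high libraries and 82.7 to 256 CPM, with 4 lower. Of 8 fibroblast markers, 5 were lower, among them PDGFRA with 4 and 3 counts in LGR5-high, and 2 were higher, THY1 and FBLN1, so that the sum was 497 to 534 CPM in LGR5-high, beside 159 to 358 CPM in LGR5-negative. The 5 smooth muscle and pericyte markers summed to 16.1 to 16.5 CPM in LGR5-high, beside 4.46 to 5.20 CPM in LGR5-negative, with 4 higher and DES at 2 counts or fewer in every library. The 5 Schwann cell markers summed to 58.9 to 78.9 CPM and 5.44 to 10.8 CPM, with 2 higher, NGFR and S100B, and 1 lower. The 4 T cell markers had 0 counts in both LGR5-high libraries and at most 4 in LGR5-negative. In bulk libraries such as these, more cells of a type and more RNA per cell cannot be told apart.

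Of the 10 genes, edgeR's quasi-likelihood test called 6 higher in LGR5-high and 2 lower, with adjusted p-values under 0.05, and did not call the other 2. All 3 ligand genes and all 3 latent binding protein genes rose. The 2 receptor genes TGFBR2 and TGFBR3 fell, and TGFBR1 and SMAD7 were not called. The populations differed widely over the whole transcriptome, and 44.7% of all tested genes were called, 22.7% higher and 22.0% lower, so 8 calls among 10 genes are to be read against that share. The same 6 and 2 calls stood when the pig was added as a replicate block, where 55.7% of all genes were called, 28.5% higher and 27.2% lower. The median log2 fold change of the 10 genes was 1.46, beside 0.02 over all tested genes. The 2 LGR5-high libraries lay wholly above or wholly below the 2 LGR5-negative libraries for 9 of the 10 genes, TGFBR1 being the exception, and this held for 76.6% of all tested genes, 39.2% above and 37.4% below. With log2 CPM compared by Student's t-test, which the study's methods name, LTBP3 alone of the 10 was called, and the other estimates kept their direction. The study does not give the scale of the values it tested, so this t-test does not repeat the study's own calls.

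**Figure D1:**
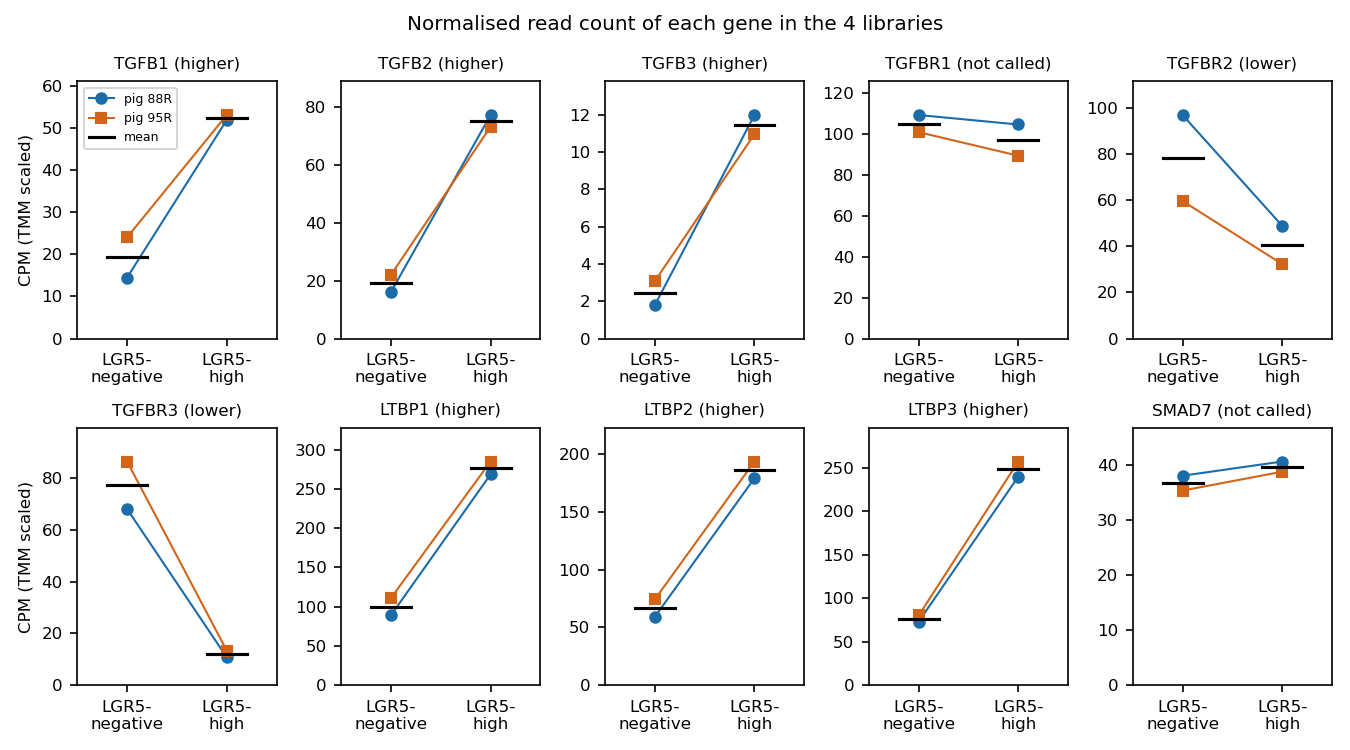
Normalised read count (CPM, TMM scaled, vertical axis from 0) of each of the 10 genes in the LGR5-negative and LGR5-high libraries, with a line for each pig and a black bar at the mean of each population. Lines rise steeply for TGFB1, TGFB2, TGFB3, LTBP1, LTBP2 and LTBP3, fall for TGFBR2 and TGFBR3, and stay nearly level for TGFBR1 and SMAD7.

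TGFB2, the ligand that depends most on the co-receptor TGFBR3, stood at 77.3 CPM for pig 88R and 73.2 CPM for pig 95R in LGR5-high, against 16.1 and 22.0 CPM in LGR5-negative. Both LGR5-high libraries stood far above both LGR5-negative libraries. The means were 75.2 ± 2.85 and 19.0 ± 4.20 CPM (SD over the 2 pigs), and the log2 fold change came to 1.98 (standard error 0.162, adjusted p = 4.43e-04), a 3.95-fold difference. TGFB1, the ligand most widely made in tissues, had 51.8 and 53.0 CPM in LGR5-high, against 14.5 and 24.0 CPM in LGR5-negative. The LGR5-high libraries of TGFB1 were close to each other, while the LGR5-negative libraries differed 1.66-fold between the pigs. The log2 fold change of TGFB1 was 1.45 (standard error 0.233, adjusted p = 0.00481), a 2.72-fold difference. TGFB3 had the fewest counts of the 10 genes summed over the 4 libraries, with 412 and 362 in LGR5-high and 51 and 93 in LGR5-negative, or 12.0 and 11.0 CPM against 1.79 and 3.08 CPM. Its change on the log2 scale was the largest increase of the 10 genes, at 2.23 (standard error 0.284, adjusted p = 0.00202), a 4.70-fold difference. The 95% intervals of the 3 log2 fold changes, which ran from 0.87 to 2.02 for TGFB1, from 1.58 to 2.38 for TGFB2 and from 1.53 to 2.93 for TGFB3, overlapped one another.

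The ligand genes changed by less in pig 95R than in pig 88R. In pig 88R and then 95R, the changes on the log2 scale were 1.84 and 1.14 for TGFB1, 2.26 and 1.73 for TGFB2, and 2.70 and 1.81 for TGFB3. The difference lay on the LGR5-negative side, where pig 95R was the higher of the 2 for each ligand gene, while the LGR5-high libraries differed by 1.02-fold to 1.09-fold. The LGR5-negative library of pig 95R also held more LGR5 counts, 109 against 36, and its part in these values was not tested. All 6 of the genes called higher here changed by less in pig 95R, as did 58.0% of all genes called higher.

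The latent binding protein genes changed more evenly than the ligand genes. LTBP3, whose product binds the latent complex, had 240 and 257 CPM in LGR5-high, against 72.8 and 80.0 CPM in LGR5-negative. The pigs were within 1.10-fold of each other in either population. For LTBP3 the log2 fold change came to 1.70 (standard error 0.0902, adjusted p = 1.26e-04), a 3.25-fold difference, and its standard error was the smallest of the 10 genes. LTBP1, the best studied carrier of latent TGFB1, had 269 and 285 CPM against 89.0 and 111 CPM, and a log2 fold change of 1.47 (standard error 0.123, adjusted p = 4.88e-04). LTBP2 had 179 and 194 CPM against 59.1 and 74.2 CPM, and a log2 fold change of 1.48 (standard error 0.127, adjusted p = 5.14e-04). LTBP2 differs from its relatives in that it does not bind latent TGF-beta and is known as a component of elastic microfibrils. For all 3 genes the LGR5-high libraries were well clear of the LGR5-negative libraries. By pig, 88R first, the changes on the log2 scale were 1.72 and 1.68 for LTBP3, 1.59 and 1.36 for LTBP1, and 1.60 and 1.38 for LTBP2. The remaining family gene, LTBP4, was on the list of latent complex genes and was singled out after its values were seen. It had 739 CPM on average in LGR5-high, against 170 CPM in LGR5-negative, with a log2 fold change of 2.12 (standard error 0.104, adjusted p = 1.02e-04), so that all 4 LTBP genes were higher.

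TGFBR3 was the gene that fell most. In LGR5-high, pig 88R gave 10.7 CPM and pig 95R 13.3 CPM, while the LGR5-negative libraries gave 68.1 and 86.5 CPM. Both LGR5-high libraries were far below both LGR5-negative libraries. The means were 12.0 ± 1.85 and 77.3 ± 13.0 CPM (SD over the 2 pigs), and the log2 fold change came to -2.68 (standard error 0.172, adjusted p = 2.08e-04), a 6.42-fold difference. Only 1.82% of all tested genes had a log2 fold change as low or lower. The pigs gave nearly the same change, -2.66 in 88R and -2.69 in 95R.

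TGFBR2, the receptor that binds the ligand first, was at 48.8 and 32.2 CPM in LGR5-high, against 96.8 and 59.5 CPM in LGR5-negative. The populations did not overlap, but the pigs differed within each of them, 1.51-fold in LGR5-high and 1.63-fold in LGR5-negative, with 88R the higher both times. The log2 fold change came to -0.95 (standard error 0.284, adjusted p = 0.0401), a 1.93-fold difference close to the threshold. With the pig as a replicate block, which takes out this difference between pigs, it was -0.94 (standard error 0.0979, adjusted p = 2.77e-07). Within each pig the change was much the same, -0.99 in 88R and -0.88 in 95R. The call was lost without the LGR5-high library of pig 95R (log2 fold change -0.68, adjusted p = 0.178), without the LGR5-negative library of pig 88R (-0.55, adjusted p = 0.123), and with scaling by library size only (-0.72, adjusted p = 0.0788). TGFBR1, the kinase that passes the signal to the SMADs, had 105 and 89.3 CPM in LGR5-high, against 109 and 101 CPM in LGR5-negative. Its libraries overlapped, and its change on the log2 scale was -0.12 (standard error 0.105, adjusted p = 0.408), which turned to 0.11 with library size only. The 95% interval of this estimate, from -0.37 to 0.14, leaves room for a small change in either direction. The Langerhans, endothelial and melanocyte marker sums given above were also lower in LGR5-high, as TGFBR2 and TGFBR3 were. So was the suprabasal marker sum, at 4921.73 to 5489.74 CPM in LGR5-high, against 54021.8 to 63104.5 CPM in LGR5-negative. The stem cell and sort, inner root sheath, fibroblast, smooth muscle and Schwann cell sums were higher, though 5 of the 8 fibroblast markers were lower. The part of any of these cell types in the fall of either receptor was not tested.

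SMAD7, the feedback inhibitor, was nearly level. It had 40.7 and 38.8 CPM in LGR5-high, against 38.1 and 35.4 CPM in LGR5-negative. The LGR5-high libraries were the higher, by a small margin in each pig. The log2 fold change came to 0.11 (standard error 0.0970, adjusted p = 0.379), with a 95% interval from -0.13 to 0.35. With library size only, which moves the median of all tested genes to 0.24, it was 0.34 and was called (adjusted p = 0.0320).

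**Figure D2:**
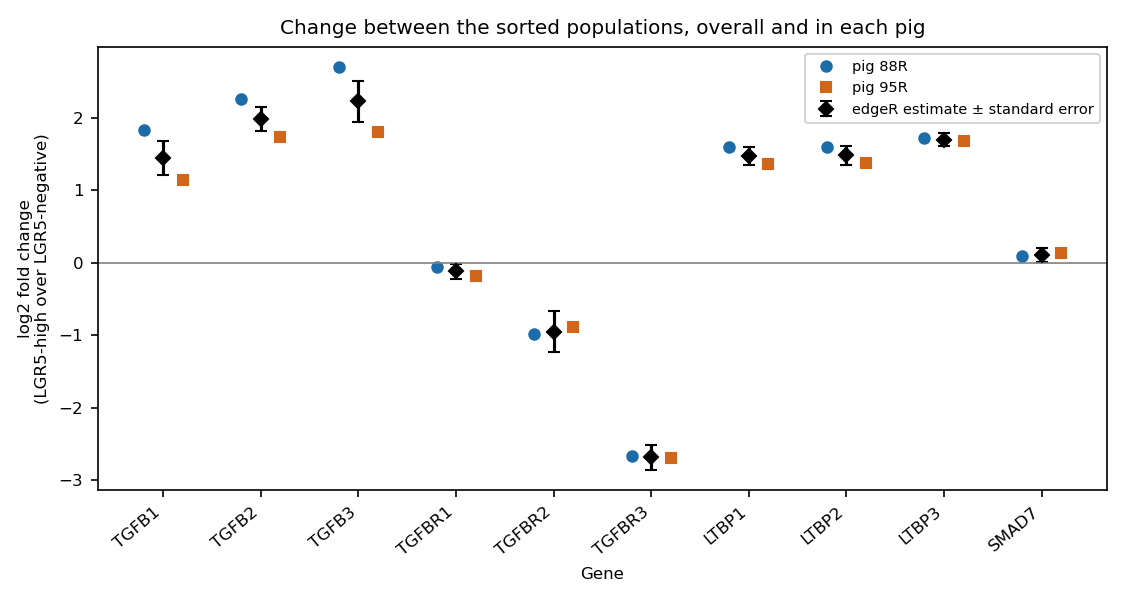
Log2 fold change of LGR5-high over LGR5-negative (vertical axis) for each of the 10 genes, as the edgeR estimate with its standard error (black) and separately in pigs 88R (blue circles) and 95R (orange squares). The pigs are apart for the ligands, 1.84 against 1.14 for TGFB1, and almost coincide for LTBP3 and TGFBR3.

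Ratios of the counts of 2 genes within a library do not depend on how libraries are scaled to each other. The size of such a ratio depends on the lengths of both transcripts. Its change between populations does not, as long as each gene uses transcripts of the same length in both, which was not tested. The ratio of TGFBR1 to TGFBR2 in LGR5-high was 2.14 for pig 88R and 2.77 for pig 95R, and 1.13 and 1.69 for LGR5-negative, which is a 1.90-fold and a 1.64-fold increase. Receptor counts therefore leaned towards TGFBR1 in LGR5-high cells of both pigs. The ratio of TGFBR1 to TGFBR3 was 9.74 and 6.69 in LGR5-high and 1.60 and 1.17 in LGR5-negative, which is 6.08-fold and 5.74-fold. The ratio of TGFBR2 to TGFBR3 rose 3.20-fold and 3.51-fold, so the co-receptor fell by more than the signalling receptor did. Among the ligands, the ratio of TGFB2 to TGFB1 was 1.49 and 1.38 in LGR5-high and 1.11 and 0.917 in LGR5-negative, and that of TGFB3 to TGFB1 was 0.231 and 0.207 against 0.124 and 0.128. The share of TGFB1 in the ligand counts was thus smaller in LGR5-high in both pigs. The ratio of LTBP1 to TGFB2 was lower in LGR5-high, with 3.48 and 3.89 against 5.53 and 5.04, while that of LTBP1 to TGFB1 overlapped between the populations. An exact permutation test of a ratio between 2 and 2 libraries cannot go below a 2-sided p-value of 0.333, so none is given.

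**Figure D3:**
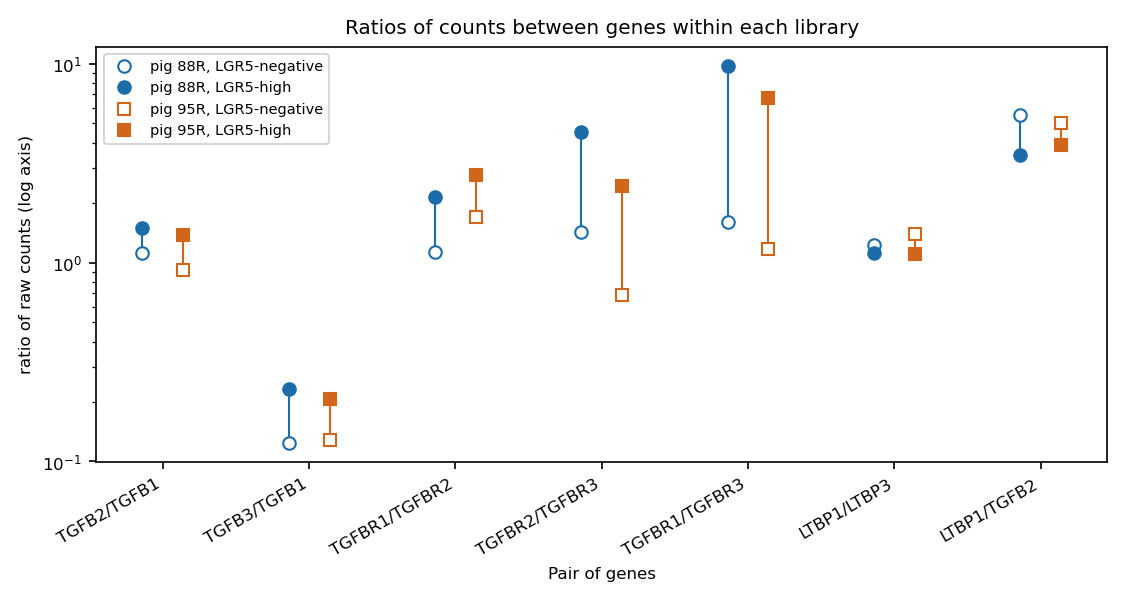
Ratio of the raw counts of 2 genes within each library, on a log axis, for 7 pairs of genes. Open symbols are LGR5-negative, filled symbols LGR5-high, blue circles pig 88R and orange squares pig 95R. The widest gap is for TGFBR1 over TGFBR3, from 1.60 to 9.74 in pig 88R and from 1.17 to 6.69 in pig 95R.

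Around these genes stood a list of 20 genes of the latent complex and its activation, of which 17 passed the filter. Of these, 11 rose and 2 fell, 64.7% and 11.8% beside 22.7% and 22.0% of all tested genes, and the median log2 fold change was 0.82. The largest increases were those of the protease MMP2 (log2 fold change 5.81), the small proteoglycan BGN (5.52) and the microfibril protein FBN2 (4.88). The genes that fell were the protease MMP9 (-2.61), at 19 counts or fewer in every library, and DCN (-0.82), the proteoglycan decorin, which binds TGF-beta. The integrins and the thrombospondin that activate latent TGF-beta were singled out after their values were seen. ITGB6, ITGB8 and ITGAV, whose chains pair as the activating integrins, had log2 fold changes of 2.70, 1.14 and 0.82, and THBS1 one of 1.87, and all 4 were called higher. ITGB5, another partner of ITGAV on the list, was not called (log2 fold change -0.21, adjusted p = 0.0686) except, just under the threshold, with the pig as a replicate block, and ITGB3, with 20 counts or fewer in every library, was not tested.

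Among the 8 co-receptors and decoys, 7 were tested, 2 rose and 1 fell, which is 28.6% and 14.3% beside 22.7% and 22.0% of all tested genes. ACVRL1, a type I receptor, rose by 3.85 on the log2 scale (standard error 0.273, adjusted p = 2.83e-04), with 417 and 441 counts in LGR5-high and 19 and 33 in LGR5-negative. ENG, or endoglin, the relative of TGFBR3, had one of 2.54 (standard error 0.359, adjusted p = 0.00302), with 271 and 153 counts against 35 and 28. Both genes are best known from endothelium. Of the 6 endothelial markers, 5 were lower in LGR5-high, while PECAM1 was not called, with 107 and 185 counts against 204 and 246. The part of endothelial cells in either gene was not tested. ENG moved in the opposite direction to its relative TGFBR3. TGFBRAP1, a receptor-associated protein, had a log2 fold change of -0.29 (adjusted p = 0.0421), a call that was lost under 9 of the 12 alternatives tried. TMEFF1, a BMP antagonist described downstream of TGFB2 in follicle stem cells and singled out after its values were seen, had 92 and 84 counts against 51 and 66 and was not called (log2 fold change 0.39, adjusted p = 0.268).

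The 13 SMAD transducers and partners, all tested, had 2 genes higher and 4 lower, 15.4% and 30.8% beside 22.7% and 22.0% of all tested genes. The median of the list was -0.23 on the log2 scale. SMAD3, a signal-carrying SMAD, was lower (log2 fold change -0.45, standard error 0.105, adjusted p = 0.0175), and so were the acetyltransferase gene CREBBP (-0.50) and the kinase partner TAB1 (-0.41). DAB2, an adaptor of the receptors, was higher by 2.95 and TAB2 by 0.66. SMAD2 and SMAD4 were not called, with 0.15 and 0.10. With library size only, 4 of these genes were higher and 1 was lower, so the balance between directions in this list turned with the scaling.

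Of the 16 intracellular inhibitors, all tested, 5 were higher and 5 were lower, 31.2% each way beside 22.7% and 22.0% of all tested genes, with a median log2 fold change of 0.05. SMAD6, the inhibitory SMAD that acts mainly on the bone morphogenetic protein arm, had 548 and 593 counts in LGR5-high and 149 and 202 in LGR5-negative, a log2 fold change of 1.51 (standard error 0.179, adjusted p = 0.00156). It was higher while its partner SMAD7 was not called. PMEPA1, a membrane inhibitor that is itself induced by TGF-beta, rose by 0.86, and the ubiquitin ligase gene WWP1 by 0.78. The ubiquitin ligase gene NEDD4L (-0.73), the corepressor gene TGIF1 (-0.72) and the deubiquitinase gene USP15 (-0.69), which acts on the receptor complex, were lower.

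Genes that TGF-beta is known to induce were called in both directions. Of 26 listed, 25 were tested, 7 were higher and 11 were lower, 28.0% and 44.0% beside 22.7% and 22.0% of all tested genes, with a median log2 fold change of -0.32. The actin-binding gene TAGLN (log2 fold change 4.96), the matrix gene TNC (4.49) and CTGF (4.46) had the largest increases. CTGF, also named CCN2, had 29233 and 37880 counts in LGR5-high and 1008 and 1675 in LGR5-negative. Its relative CYR61, or CCN1, went the other way, with 6126 and 7039 counts against 16209 and 15535 and a log2 fold change of -1.47 (standard error 0.117, adjusted p = 4.02e-04). ZEB1 (-3.07) and ZEB2 (-2.77), transcription factors of mesenchymal, melanocytic and immune cells, had the largest decreases, from 24 to 43 counts in LGR5-negative to 7 or fewer in LGR5-high. CDKN1A, a cell cycle inhibitor among the best known targets, was singled out after its values were seen and was lower, with a log2 fold change of -1.19. TAGLN is also a smooth muscle gene, and ACTA2 and CNN1 of the smooth muscle list were higher in LGR5-high. Their mean levels there were 4.10 CPM for ACTA2 and 4.70 CPM for CNN1, beside 333 CPM for TAGLN. The part of smooth muscle cells was not tested.

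**Figure D4:**
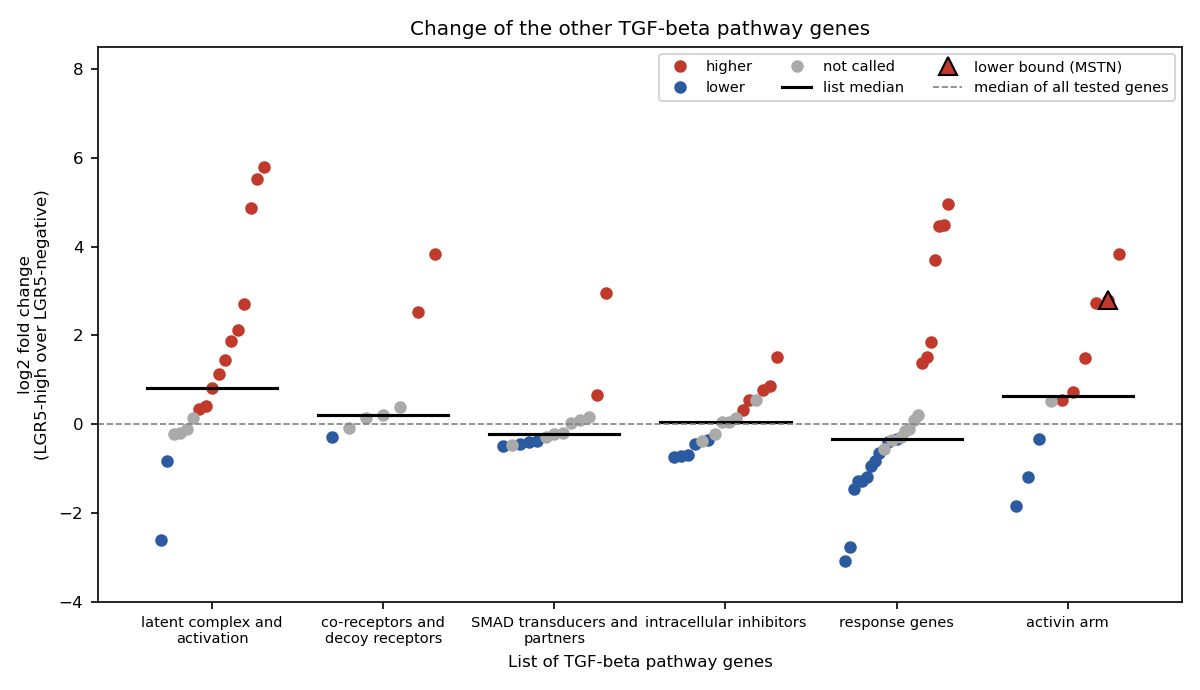
Log2 fold change of LGR5-high over LGR5-negative (vertical axis) for each tested gene of 6 lists of TGF-beta pathway genes, coloured by call. Black bars are list medians, the dashed line is the median of all tested genes (0.02), and the triangle is MSTN at a lower bound. The latent complex list has the highest median, 0.82, and the response genes the lowest, -0.32.

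The genes whose pattern over the 4 libraries was nearest to that of TGFB3, the largest increase, were LOC100517213, PLPPR1 and C17H8orf4. Their Euclidean distances to TGFB3 in centred log2 CPM were 0.0676, 0.117 and 0.125. LOC100517213 and PLPPR1 were low, with means of 1.17 and 3.93 CPM in LGR5-high and 0.203 and 0.844 CPM in LGR5-negative. The means of C17H8orf4 were 46.4 and 9.19 CPM. These log2 values used a prior count of 2, which weighs most on genes with few counts. For TGFBR3, the largest decrease, the nearest were ELL3, the niacin receptor gene HCAR2 and the melanosome and macrophage gene GPNMB, at distances of 0.0788, 0.102 and 0.104. Such neighbours are common with 4 libraries, since 240 genes lay within a distance of 0.5 of TGFB3 and 119 of TGFBR3.

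The reads of some of these genes could be split with another gene. In the RefSeq annotation of Sscrofa11.1, the spans of some of the called genes overlap a protein-coding gene, among them LOC110261354 for TGFB1, IFT43 for TGFB3 and ISCA2 for LTBP2. How reads in shared exons were counted is not given in the sources used here. TGFB2, TGFBR1, TGFBR2 and SMAD7 overlap no other gene there.

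**Figure D5:**
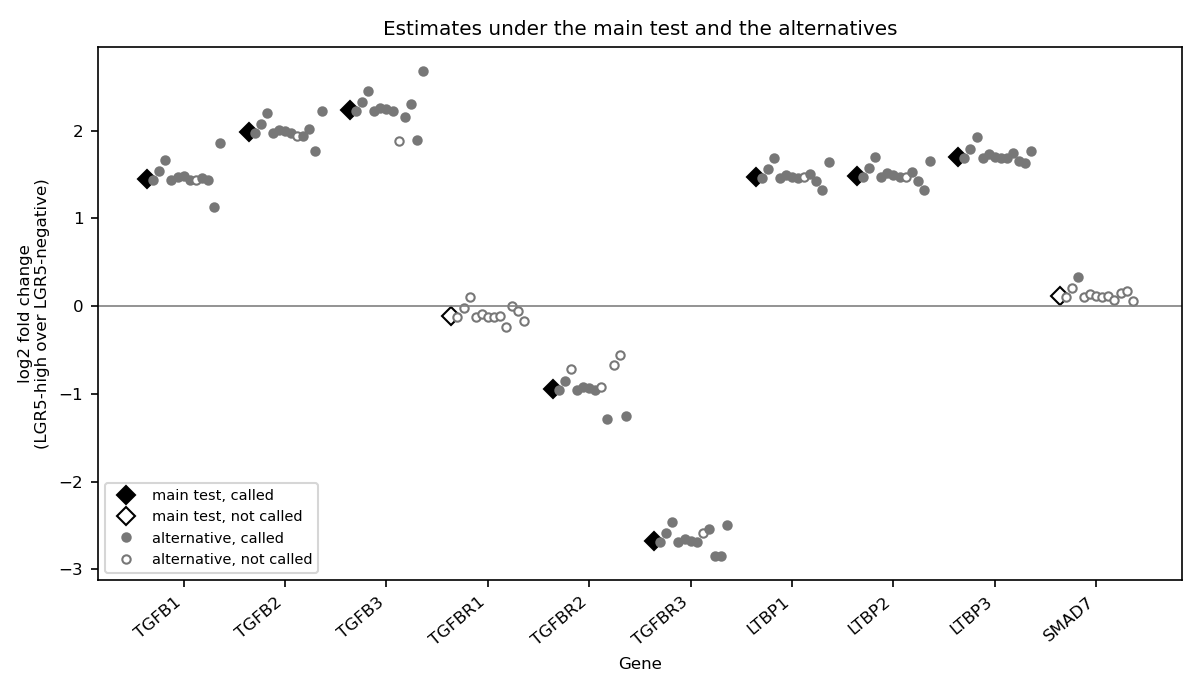
Log2 fold change (vertical axis) of the 10 genes under the main test (black diamonds) and 12 alternatives (grey circles), filled where the adjusted p-value was under 0.05. The estimates of the 6 higher genes and of TGFBR3 stay well away from 0, those of TGFBR2 run from -1.29 to -0.55 with 4 open symbols, and that of TGFBR1 crosses 0 once.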

How the data were processed

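Poly(A) RNA of sorted LGR5-high and LGR5-negative epidermal cells from 2 pigs was sequenced, 1 library for each population and pig. The deposited values are whole-number counts for each gene symbol, which the authors had not normalised. The submitters' processing notes name Trimmomatic 0.36, STAR 2.5.2b and featureCounts of Subread 1.5.2, and the build, annotation and strand setting are not given in the sources used here. One entry without a name, 0.360% to 0.626% of the counts, was left out. All 4 columns were used.

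The test was fitted with edgeR 4.0.16 (R 4.3.3) to all genes kept by filterByExpr (minimum count 10, minimum total 15), with TMM scaling, by quasi-likelihood, and with no term but the population. P-values are 2-sided and Benjamini-Hochberg adjusted over all 15980 genes, and an adjusted p-value under 0.05 is a call. CPM values are TMM scaled. Log2 fold changes within a pig used a prior count of 2. The depth behind 3 counts, used as the floor, is 0.0873 to 0.105 CPM, which covers counting error only. The populations were paired by pig, since each pig gave both; as a check, how far a pig's libraries lay from their population's mean correlated at 0.370 over genes, which are not independent.

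The alternatives were other scalings, other filters, the pig as a replicate block, DESeq2 1.42.0, Student's t-test on log2(CPM + 1), and each library left out. The edgeR and DESeq2 fits were tested on simulated data with known changes. The simulation gave every gene the same dispersion and held no difference between pigs, unlike these data. Student's t-test was run on the simulated data too and recovered none of the changes. Members and lists were chosen with earlier results of these data known. Named are the 10 genes, up to 3 called genes with the largest change in each direction of each list, the genes nearest in pattern, and those said to be singled out. All 10 genes matched a RefSeq symbol, CCN1 and CCN2 were read under the symbols CYR61 and CTGF, and the listed KRT14, FLG and KRT71 were not analysed here. Some items of the lists and of the annotation are not reported here. No sequence was used. Plots were drawn with matplotlib 3.10.9.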

Additional observations from a re-analysis of the deposited data

How the results depend on the processing

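Over 12 alternatives, LTBP3 kept its direction and its call in all, and TGFB1, TGFB2, TGFB3, LTBP1, LTBP2 and TGFBR3 in all but Student's t-test. TGFBR2 lost its call under 4 alternatives, TGFBR1 turned to 0.11 with library size only, and SMAD7 was called there. With the pig as a replicate block, 6 of the 10 genes were higher and 2 were lower, as without it, and no count of calls moved by over 1.5 times. Student's t-test called 1 of the 10 genes higher and 0 lower, with adjusted p-values from 0.0473 to 0.129 for the 6 higher genes. It called 544 and 502 of all genes, with 6391 at an unadjusted p-value under 0.05. Library size only called 7 and 1 of the 10 genes and 5473 and 2326 of all genes, 70.2% of them higher against 50.9%, and moved the median log2 fold change of all genes to 0.24, and upper quartile scaling to 0.11. Without one library, 1 or 2 of the 10 genes were lower, 1 without the LGR5-high library of 95R or the LGR5-negative library of 88R. All genes called ranged then from 2292 to 3140 higher and from 2164 to 2925 lower, with 2292 and 2164 without the LGR5-high library of 95R and 2300 higher without that of 88R.

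For the lists, Student's t-test called 3 higher and 0 lower of the latent complex genes, 0 and 0 of the co-receptors, 0 and 0 of the SMAD partners, 0 and 1 of the inhibitors, 1 and 1 of the response genes and 0 and 0 of the activin arm. Library size only gave 4 higher and 1 lower SMAD partners, 2 lower inhibitors and 0 lower co-receptors, the last also with upper quartile scaling, with all genes with at least 1 count, with a minimum of 10 counts in each library, and without each library in turn. The minimum of 10 counts in each library left 1 lower latent complex gene and 7 lower response genes. MMP9, ZEB1 and ZEB2 were no longer tested there, while the other response genes that lost their calls still were. DESeq2 left 1 lower latent complex gene. Without one library, lower genes ranged from 1 to 2 in the latent complex list and from 1 to 2 in the activin arm (1 without the LGR5-high library of 95R or the LGR5-negative library of 88R), from 2 to 4 among SMAD partners (4 only without the LGR5-high library of 88R) and from 3 to 5 among inhibitors (3 without the LGR5-high library of 88R), and higher inhibitors from 2 to 4 (2 without either LGR5-high library). Where no cause is named, the cause was not tested. With 1 library left in a population, that library is assumed to vary like the others. The 10 genes had at least 51 counts in every library, and 7 of the 95 listed pathway genes did not pass the filter.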

Other observations

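Activins signal through SMAD2 and SMAD3 as TGF-beta does, and a list of 12 genes of this arm was read as well. Of these, 10 were tested, 6 rose and 3 fell in LGR5-high, 60% and 30% beside 22.7% and 22.0% of all tested genes, and the median log2 fold change was 0.64. INHBB, which encodes a chain of activin B, gave 1739 counts in pig 88R and 1586 in pig 95R for LGR5-high, and 76 and 127 for LGR5-negative, a log2 fold change of 3.84 (standard error 0.219, adjusted p = 1.57e-04 by edgeR). FST, or follistatin, which binds activin and blocks it, had 1156 and 1357 counts against 104 and 231, a log2 fold change of 2.72 (standard error 0.338, adjusted p = 0.00186). Gene counts of the ligand chain and of its antagonist were thus both higher in both pigs. MSTN, or myostatin, had 27 and 21 counts in LGR5-high and 0 in both LGR5-negative libraries, so it was at least 6.95-fold higher against a floor of 3 counts per library. The genes that fell were NODAL (log2 fold change -1.84), at 26 counts or fewer in every library, and the receptor genes ACVR2A (-1.19) and ACVR1B (-0.34). ACVR2B, the other type II receptor gene, singled out after its values were seen, was higher (0.72, adjusted p = 0.00654), so the 2 type II receptor genes of activin moved in opposite directions.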
